A study of Mus musculus with 6 samples.

Results

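Glycolysis, together with the transporters that bring glucose into the cell and carry lactate out, was followed in mouse muscle satellite cells, the stem cells that rebuild skeletal muscle after injury. The set holds 31 gene symbols, chosen by name as the enzymes, isoforms and transporters of 11 steps of the pathway, and all 31 were among the 24067 symbols listed in both expression tables. Polyadenylated RNA was sequenced from 1 library each of 4 kinds. Activated satellite cells (ASC), kept for 36 h in serum-containing F10 medium, came from mice labelled iKo for Yy1 (ASC iKO) and from mice labelled Wt (ASC WT). Freshly isolated satellite cells (FISC) came from the same kinds of mice (FISC iKO and FISC WT). A chromatin immunoprecipitation library for the transcription factor YY1 and an input library, both labelled C57 and both from ASC, gave 1 list of 2031 peaks. The allele behind the iKO label, the way deletion was induced, the age and sex of the mice and the number of animals pooled were not stated in the labels. With 1 library per group there is no replicate spread, so no p-value is given and every difference describes these libraries only.

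Glycolysis splits a molecule of glucose into pyruvate. Glucose enters through carriers of the SLC2A family and is trapped by hexokinase, and phosphofructokinase, tuned by the PFKFB enzymes, commits it to breakdown. The steps from glyceraldehyde-3-phosphate dehydrogenase to pyruvate kinase then return the ATP and NADH. Lactate dehydrogenase turns pyruvate into lactate, which leaves the cell through SLC16A carriers, while pyruvate dehydrogenase kinases hold pyruvate back from the mitochondria. Proliferating cells commonly run this pathway faster than resting ones, and satellite cells leaving quiescence are known to turn towards it.

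RefSeq promoters, 250 bases before to 50 bases after an annotated start (build GRCm38.p6), are shown for the genes on which the results below turn. Eno1, an enolase, is shown because it was the member with a YY1 peak beside its locus, and Slc16a3, a lactate exporter, because it had the lowest iKO to WT ratio in ASC. Ldha, the main lactate dehydrogenase gene, is shown as the window with most matches to the hypoxia core among those printed, and Pfkm, muscle-type phosphofructokinase, because no other member matched the YY1 letters. Capitals mark exact matches, on either strand, to GCCATNTT (YY1) and to ACGTG and GCGTG (the core of hypoxia response elements); matches that overlap run together. The windows lie at chr4:150236458-150236757 and chr4:150236947-150237246 for Eno1, chr11:120948817-120949116 for Slc16a3, chr7:46845554-46845853 for Ldha and chr15:98108221-98108520 for Pfkm, all on the plus strand.
Eno1, first start: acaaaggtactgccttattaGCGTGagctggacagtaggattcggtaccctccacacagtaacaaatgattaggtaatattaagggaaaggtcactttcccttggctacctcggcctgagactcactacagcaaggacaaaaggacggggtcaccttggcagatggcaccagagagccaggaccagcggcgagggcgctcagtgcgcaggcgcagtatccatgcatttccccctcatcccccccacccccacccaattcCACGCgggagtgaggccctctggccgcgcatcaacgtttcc
Eno1, second start: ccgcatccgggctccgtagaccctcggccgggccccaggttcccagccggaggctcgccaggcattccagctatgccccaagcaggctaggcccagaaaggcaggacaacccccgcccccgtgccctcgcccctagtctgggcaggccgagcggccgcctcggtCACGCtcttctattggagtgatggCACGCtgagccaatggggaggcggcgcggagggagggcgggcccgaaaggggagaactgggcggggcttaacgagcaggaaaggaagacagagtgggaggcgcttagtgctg
Slc16a3: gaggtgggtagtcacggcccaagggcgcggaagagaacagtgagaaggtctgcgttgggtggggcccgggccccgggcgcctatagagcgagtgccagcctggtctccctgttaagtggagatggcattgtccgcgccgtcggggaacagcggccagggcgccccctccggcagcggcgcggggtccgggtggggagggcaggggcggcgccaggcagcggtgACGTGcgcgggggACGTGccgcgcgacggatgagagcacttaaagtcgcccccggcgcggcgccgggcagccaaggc
Ldha: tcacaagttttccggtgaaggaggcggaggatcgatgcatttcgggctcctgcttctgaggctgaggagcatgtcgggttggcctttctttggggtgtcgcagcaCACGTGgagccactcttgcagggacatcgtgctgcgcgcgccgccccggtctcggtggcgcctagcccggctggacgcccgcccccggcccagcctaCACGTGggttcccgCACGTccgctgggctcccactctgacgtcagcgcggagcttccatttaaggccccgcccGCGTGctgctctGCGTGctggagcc
Pfkm: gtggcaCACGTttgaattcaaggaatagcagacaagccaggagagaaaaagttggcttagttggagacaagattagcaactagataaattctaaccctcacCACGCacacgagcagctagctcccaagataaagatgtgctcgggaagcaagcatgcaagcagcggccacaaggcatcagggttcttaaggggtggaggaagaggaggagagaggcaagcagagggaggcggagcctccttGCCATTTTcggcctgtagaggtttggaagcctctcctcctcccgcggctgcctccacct

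Expression is given as FPKM, fragments scaled to transcript length and library size, a length-scaled unit in which genes can be set side by side within a library. From 10657 to 10947 genes reached 1 FPKM in each library. Yy1 itself stood at 2.03 FPKM in ASC iKO, against 55.2 in ASC WT, and at 20.1 FPKM in FISC iKO, against 51.0 in FISC WT, so the freshly isolated pair holds the weaker contrast. All 10 satellite cell markers, among them Pax7, Myod1 and Cdh15, reached 1 FPKM in 3 libraries, and 8 of 10 did so in ASC iKO, where Calcr and Chodl stood below it. Their levels differed between the ASC libraries: 9 of the 10 had an iKO to WT ratio below 0, with a median log2 ratio of −0.50. Pax7 stood at 6.19 FPKM in ASC iKO against 28.3 in ASC WT (−2.03) and Vcam1 at 27.6 against 62.2 (−1.14). A microRNA gene, Mir762, was listed at 496241 FPKM in ASC iKO and at 0 in the other 3 libraries. Without small RNA genes the FPKM sums were 746911 in ASC iKO and 502503 in ASC WT, and 528115 in FISC iKO and 542491 in FISC WT. Ribosomal protein genes made up 29.8% of that sum in ASC iKO and 20.7% in ASC WT, and 27.9% in FISC iKO and 25.9% in FISC WT. The scaling of ASC iKO bears on every comparison that uses it.

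Pkm, pyruvate kinase, was among the most abundant members. It stood at 1314 FPKM in ASC iKO and 1382 in ASC WT, and at 327 in FISC iKO and 314 in FISC WT. Both ASC libraries held 9 members at 100 FPKM or more and both FISC libraries held 5, but not the same ones. The ASC iKO count takes Eno1 (289 FPKM) and Eno1b (371) separately and lacks Tpi1, at 98.6 against 185 in ASC WT. Gpi1 reached 100 FPKM in FISC iKO only, and Eno1 in FISC WT only, where FISC iKO had 91.8. At the other end, Aldoc, the brain aldolase, was listed at 0 in both iKO libraries and at no more than 0.132 FPKM in the WT libraries. Slc2a4, the insulin-responsive glucose carrier of mature muscle, stayed below 1 FPKM in all 4 libraries, with 0.920 FPKM in FISC iKO as its highest value.

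**Figure D1:**
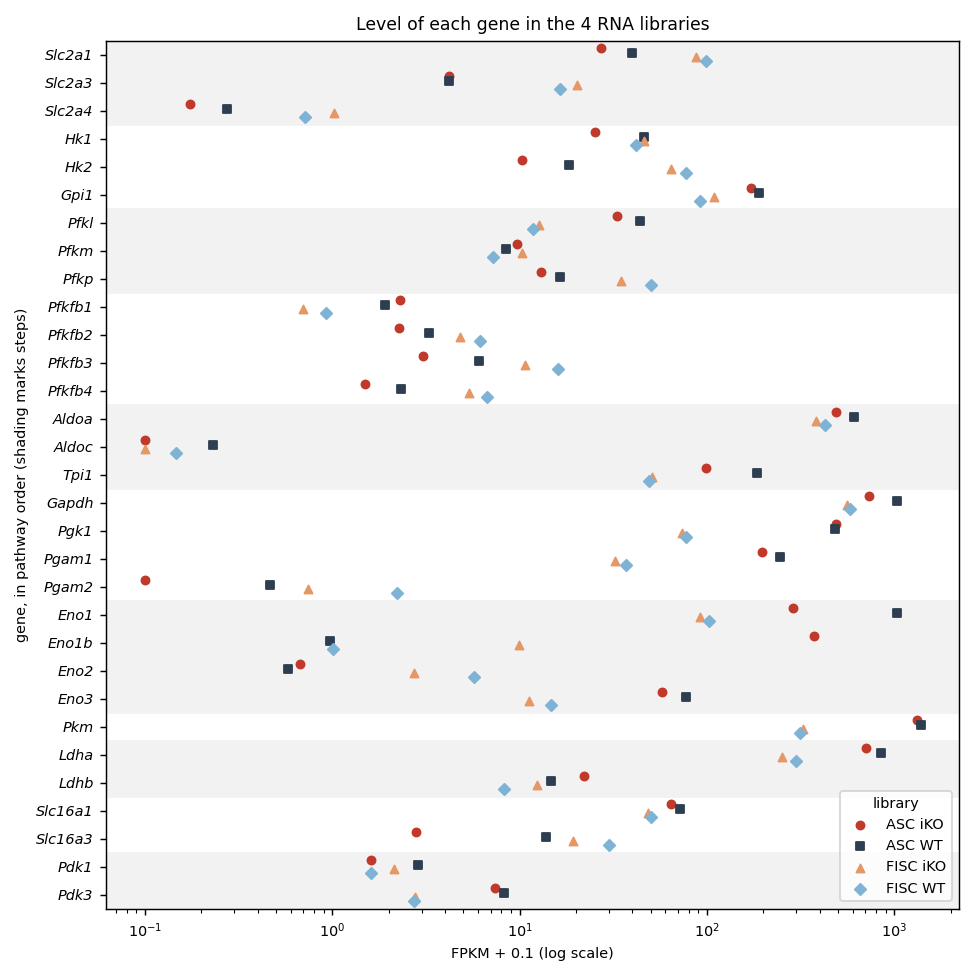
FPKM of each of the 31 genes in the 4 RNA libraries, 1 point per library, on a log axis after adding 0.1 so that genes listed at 0 can be drawn; shading separates steps of the pathway. The ASC points lie right of the FISC points for Pgk1, Pgam1, Eno3, Pkm and Ldha, and left of them for Slc2a1, Hk2, Pfkp and Slc16a3.

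In activated cells most of the pathway stood lower in ASC iKO than in ASC WT, mostly by less than 2-fold as deposited. Slc16a3 was 3.97-fold lower and Eno1 3.56-fold lower on the scale of FPKM + 1, while Eno1b, a near-identical copy of Eno1, was listed 199-fold higher. The sum of Eno1 and Eno1b was 1.56-fold lower, so the call for Eno1 did not hold for the pair. Tpi1, Hk1, Pfkfb3 and Hk2 were lower by less than 2-fold as deposited and by more than 2-fold once the libraries were scaled to equal sums. Of the 27 members with at least 1 FPKM in 1 of the 2 ASC libraries, 22 had a ratio below 0 and 5 above 0, with a median log2 ratio of −0.32. The other 4, Slc2a4, Aldoc, Pgam2 and Eno2, were below 1 FPKM in both. Across all 11215 genes with such a value 50.2% were below 0 and the median was −0.00246. Higher and lower are counted from a 2-fold ratio of FPKM + 1, which involves no test. By that measure 2 of the 27 members were lower, where 8.26% of all genes were, and 1 was higher, where 8.74% were, so the counts alone do not set these genes apart. Scaling both libraries to the same FPKM sum without small RNA genes moved the median of all genes to −0.50 and that of the members to −0.85. All genes then split into 189 higher and 2622 lower, against 980 and 926 as deposited, and the members into 1 higher and 8 lower, the 8 being Slc2a1, Hk1, Hk2, Pfkfb3, Tpi1, Gapdh, Eno1 and Slc16a3. Eno1 and Slc16a3 passed 2-fold under each of 4 scalings. The satellite cell markers, with their median of −0.50 as deposited, stood lower beside the members, and their part in these ratios was not tested. Fewer cells of a type and less RNA per cell cannot be told apart in such bulk libraries. The listed loci of Hk1, Pfkm, Pfkp, Pfkfb2, Tpi1 and Eno1b are each shared with another symbol, so their reads may be mixed with those of a neighbour.

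Glucose entry and trapping stood lower or level. Slc2a1, the ubiquitous glucose transporter GLUT1, stood at 27.0 FPKM in ASC iKO against 39.9 in ASC WT, a log2 ratio of −0.55. Slc2a3, the high-affinity carrier GLUT3, was level at 4.07 FPKM in ASC iKO and 4.08 in ASC WT. Both hexokinases, which phosphorylate glucose, were lower: Hk1, the housekeeping form, stood at 25.2 FPKM in ASC iKO against 45.9 in ASC WT (log2 ratio −0.84). Hk2, the inducible form of muscle and fat, stood at 10.2 FPKM in ASC iKO against 18.2 in ASC WT (−0.77). Gpi1, the next enzyme, which makes fructose-6-phosphate, differed little, with 171 FPKM in ASC iKO and 190 in ASC WT (−0.15). Of these 5 genes the hexokinases lay farthest from 0. Under the sum scaling the log2 ratios were −1.10 for Slc2a1, −0.46 for Slc2a3, −1.39 for Hk1, −1.30 for Hk2 and −0.72 for Gpi1.

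At the commitment step the 3 phosphofructokinase genes did not move alike. Pfkl, the liver type, stood at 32.9 FPKM in ASC iKO against 43.5 in ASC WT, and Pfkp, the platelet type, at 13.0 against 16.3. Pfkm, the muscle type, stood slightly the other way at 9.58 FPKM in ASC iKO against 8.32 in ASC WT (log2 ratio 0.18), a sign that turned to −0.33 under the sum scaling. The PFKFB genes encode enzymes that make and remove fructose-2,6-bisphosphate, the strongest activator of phosphofructokinase. Pfkfb3, the isoform with the highest kinase activity, stood at 2.96 FPKM in ASC iKO against 5.97 in ASC WT (−0.81). Pfkfb2 stood at 2.17 against 3.18 FPKM and Pfkfb4 at 1.40 against 2.24. Pfkfb1 had 2.21 FPKM in ASC iKO and 1.82 in ASC WT, and its sign also turned under the sum scaling (0.19 as deposited, −0.19 then). All 4 were at a few FPKM, where the added 1 shrinks a ratio. The sum scaling put Pfkl at −0.95, Pfkp at −0.85, Pfkfb3 at −1.27, Pfkfb2 at −0.81 and Pfkfb4 at −0.79.

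Cleavage and the triose steps were again lower in ASC iKO, to different degrees. Aldoa, the main aldolase, stood at 487 FPKM in ASC iKO against 609 in ASC WT (log2 ratio −0.32). Tpi1, which interconverts the 2 triose phosphates, stood at 98.6 FPKM in ASC iKO against 185 in ASC WT, a log2 ratio of −0.90 and a 1.86-fold difference. Gapdh, the dehydrogenase that starts the payoff phase, stood at 736 FPKM in ASC iKO against 1033 in ASC WT (−0.49). Pgk1, the first ATP-yielding enzyme, was level with 491 FPKM in ASC iKO and 482 in ASC WT, and its ratio changed sign with the scaling (0.03 as deposited, −0.54 under the sum scaling). Pgam1, the phosphoglycerate mutase of most tissues, stood at 198 FPKM in ASC iKO against 245 in ASC WT (−0.31). Its muscle isoform Pgam2 was listed at 0 in ASC iKO and at 0.363 FPKM in ASC WT, too low for a ratio. As deposited, neighbouring enzymes in the chain ran from level to nearly 2-fold lower. The log2 ratios under the sum scaling were −0.89 for Aldoa, −1.47 for Tpi1, −1.06 for Gapdh and −0.88 for Pgam1.

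Enolase, which makes phosphoenolpyruvate, held the member farthest from 0, in a pair of genes whose reads are hard to separate. Eno1 (mm9, chromosome 4, 149611306 to 149622982) stood at 289 FPKM in ASC iKO against 1032 in ASC WT, a log2 ratio of −1.83. Its near-identical copy Eno1b, on another chromosome, was listed at 371 FPKM in ASC iKO against 0.869 in ASC WT. Eno1b held 56.2% of the pair's FPKM in ASC iKO and 0.0841% in ASC WT, and the same tilt appeared in FISC, with 9.72% in FISC iKO and 0.879% in FISC WT. Reads from such copies can be assigned to either gene, so the sum is the safer value: it stood at 660 FPKM in ASC iKO against 1033 in ASC WT, or 1.56-fold lower (log2 ratio −0.64). Under the sum scaling, chosen for this pair after seeing the data, it was 2.32-fold lower (−1.22). As deposited and with the sum in place of the pair, Slc16a3 alone among the members was at least 2-fold lower and none was higher. Eno3, the muscle enolase, stood at 57.2 FPKM in ASC iKO against 76.8 in ASC WT (−0.42, and −0.98 under the sum scaling). Eno2, the neuronal form, stayed below 1 FPKM, at 0.569 in ASC iKO and 0.480 in ASC WT.

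Past enolase the differences as deposited were small until the lactate exporter. Pkm stood at 1314 FPKM in ASC iKO and 1382 in ASC WT (log2 ratio −0.07, and −0.64 under the sum scaling). Ldha, whose subunits favour making lactate, stood at 706 FPKM in ASC iKO against 846 in ASC WT (−0.26, and −0.83 scaled). Ldhb, whose subunits favour the reverse reaction, was the member with the highest ratio apart from Eno1b, with 22.0 FPKM in ASC iKO against 14.5 in ASC WT (0.56, and 0.022 under the sum scaling). Slc16a1, the carrier MCT1, stood at 64.2 FPKM in ASC iKO against 71.8 in ASC WT (−0.16, and −0.72 scaled). Slc16a3, the carrier MCT4 of cells that export lactate (chromosome 11, 120809798 to 120820314), stood at 2.69 FPKM in ASC iKO against 13.7 in ASC WT, a log2 ratio of −1.99 and, scaled, of −2.46. The kinases that inhibit pyruvate dehydrogenase were low: Pdk1 stood at 1.51 FPKM in ASC iKO against 2.78 in ASC WT (−0.59, and −0.97 scaled) and Pdk3 at 7.31 against 8.15 (−0.14, and −0.64 scaled).

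**Figure D2:**
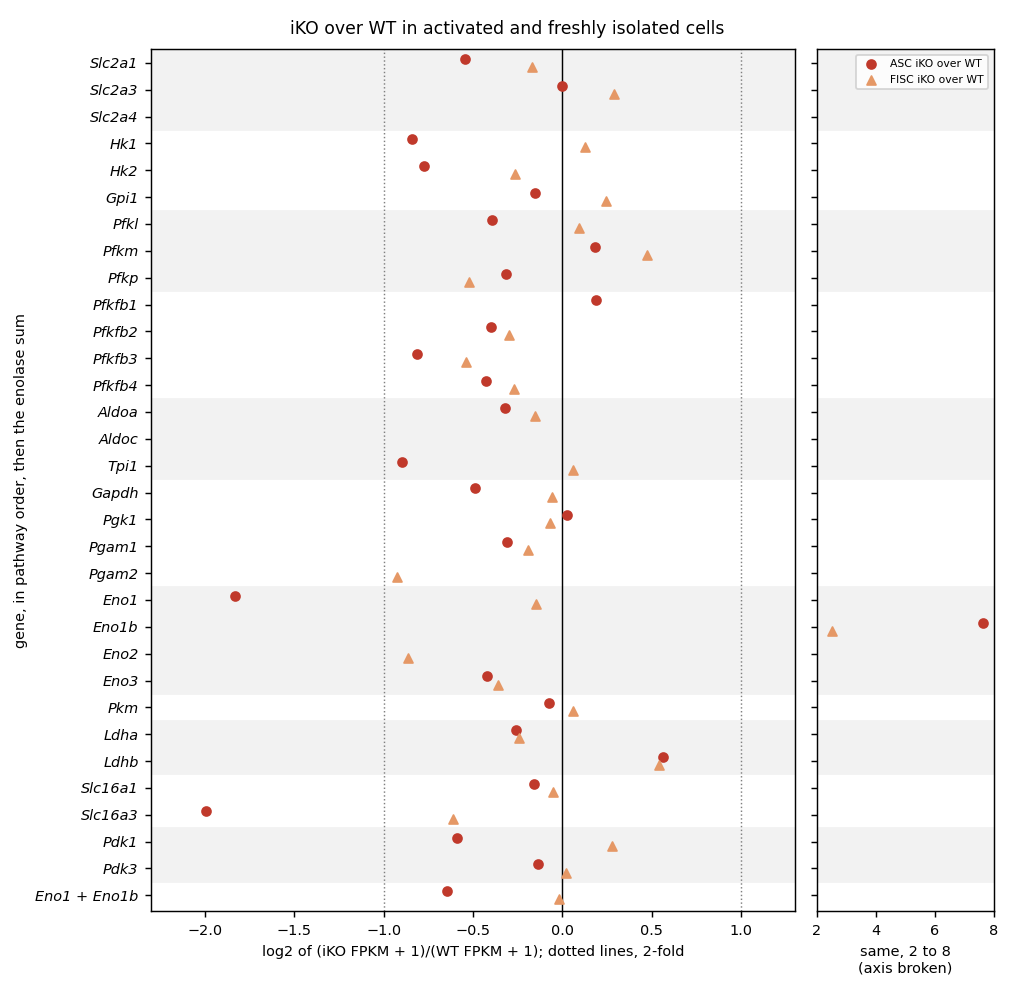
Log2 ratio of iKO over WT, each FPKM with 1 added, for each gene in ASC (circles) and FISC (triangles), with the sum of Eno1 and Eno1b in the last row; the axis is broken and compressed on the right for Eno1b, and genes below 1 FPKM in both libraries of a pair have no point. Slc16a3 at −1.99 and Eno1 at −1.83 lie left of the 2-fold line in ASC, while the enolase sum lies at −0.64.

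The ratio in ASC also moved with the length of the gene locus across the whole table. Genes in the shortest decile of locus length (median 2.81 kb) had a median log2 ratio of 0.67 in ASC, and those in the longest (184 kb) had −0.48. Several abundant glycolytic genes have short listed loci. Aldoa, Tpi1, Gapdh, Pgam1 and Eno3 all lie in decile 2, where the median of all genes was 0.39, and each of the 5 had a ratio below 0. As a difference from the median of their own decile, 21 of the 27 members lay below and 6 above, with a median difference of −0.40. Tpi1 stood at −1.29 on that scale, Gapdh at −0.88, Slc16a3 at −2.24 and Eno1 at −2.09, while Hk1 at −0.42 and Hk2 at −0.46 lay closer to the genes of like length. Pfkm, Pfkfb1, Ldhb, Pfkp (by 0.10) and Pdk3 lay above their decile's median, as did Eno1b. Hk1, Pfkm, Pfkp, Pfkfb2, Tpi1 and Eno1b share their listed locus with another symbol. The length of such a locus, and so the decile, may not be that of the gene alone. What lies behind the trend with length was not tested.

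**Figure D3:**
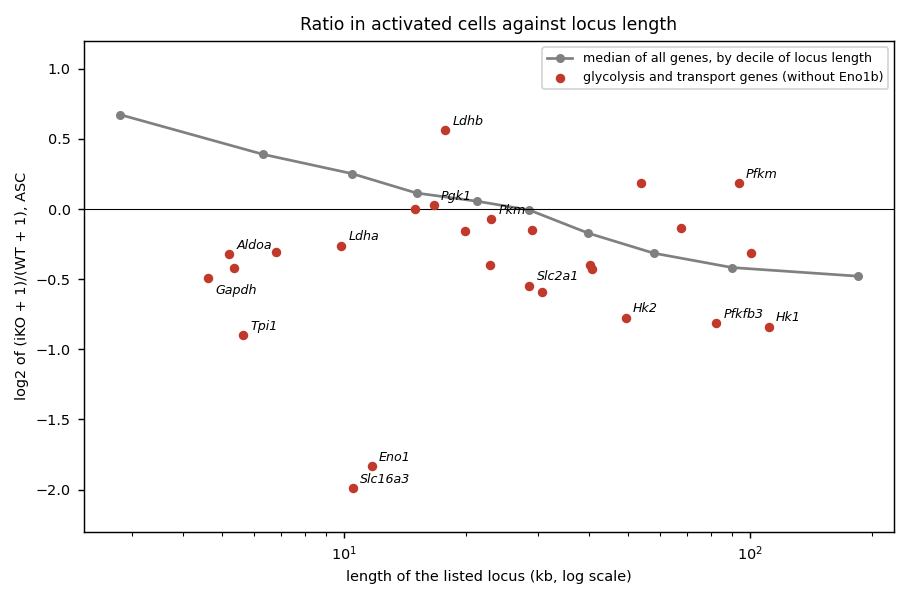
Log2 ratio of iKO over WT in ASC for each measured gene except Eno1b, against the length of its listed locus on a log axis; the grey line joins the medians of all genes in 10 equal classes of locus length. The line falls from 0.67 to −0.48, and Tpi1, Gapdh and Aldoa, with short listed loci, lie well below it.

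In freshly isolated cells the same genes differed less between the genotypes. Of 28 members with a value, none was 2-fold lower, where 0.721% of all 11229 genes were, and only Eno1b was 2-fold higher, where 0.677% were. The median was −0.11 beside −0.00267 over all genes, with 17 members below 0 and 11 above. The enolase sum was level at 102 FPKM in FISC iKO and 103 in FISC WT, so the shift to Eno1b there left the total as it was. Slc16a3 stood at 19.3 FPKM in FISC iKO against 29.9 in FISC WT (log2 ratio −0.61), and Pfkp at 34.8 against 50.4 (−0.52). Pfkfb3 stood at 10.6 FPKM in FISC iKO against 15.9 in FISC WT (−0.54). These 3 had the lowest ratios among the members at 10 FPKM or more in either FISC library.

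Some members pointed the same way in both pairs and some did not. Of 26 members measured in both, 14 were below 0 in both and 3 were above 0 in both. Another 8 were below in ASC and above in FISC, and 1 was the reverse. The 3 above 0 in both were Pfkm, Ldhb and Eno1b, and Eno1 was among the 14 below. Summed, the enolase pair stood at −0.64 in ASC and was level in FISC (−0.02). There is no replicate to set these counts against, and the same split over all genes was not made. Taken singly, 50.2% of all genes were below 0 in the ASC pair and 50.4% in the FISC pair. Ldhb was above 0 in both pairs, with 12.4 FPKM in FISC iKO against 8.18 in FISC WT (0.54), as was Pfkm with 10.2 against 7.10 (0.47). Hk1 stood at 45.8 FPKM in FISC iKO against 41.8 in FISC WT (0.13), the other side of 0 from its ASC value, and Gpi1 at 109 against 92.1 (0.24). Tpi1 was level with 50.9 FPKM in FISC iKO and 48.9 in FISC WT. Eno2 stood at 2.62 FPKM in FISC iKO against 5.57 in FISC WT and Pgam2 at 0.642 against 2.12, both passing 2-fold once the added value was 0.1 in place of 1. The remaining FISC members, from Aldoa (382 FPKM in FISC iKO, 424 in FISC WT) to Ldha (252 and 299), had log2 ratios between −0.36 for Eno3 and 0.29 for Slc2a3.

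Levels of other cells' markers did not follow one pattern between the genotypes. Summed over 5 immune markers they stood at 14.9 FPKM in ASC iKO and 4.23 in ASC WT, carried by Cd68 and Cd14, with Ptprc listed at 0 in both. Muscle fibre markers, 9 in all, summed to 6.14 FPKM in ASC iKO and 6.20 in ASC WT, and to 37.6 in FISC iKO and 29.0 in FISC WT. The 5 fibroblast markers summed to 7.76 FPKM in ASC iKO and 11.1 in ASC WT, and the 5 endothelial ones to 2.49 and 2.14. The part of other cells in the ratios was not tested.

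Activated and freshly isolated cells differed in which genes of the pathway were abundant. In WT cells Slc2a1, Slc2a3, Hk2, Pfkp and 2 PFKFB genes were at least 2-fold lower in ASC than in FISC, while Gpi1, Pfkl, Tpi1 and most genes from Pgk1 to Ldha were at least 2-fold higher. The ASC and FISC tables may not share 1 normalization, and ratios between them are given as description. They were scaled to the same FPKM sum without small RNA genes, and the median of all genes was then 0.50 in WT and −0.05 in iKO. In WT, 10 of 28 members were 2-fold higher, where 34.0% of all genes were, and 8 were lower, where 15.9% were. In iKO, 6 of 28 were higher, where 23.4% were, and 10 were lower, where 27.8% were. The 6 include both Eno1 and Eno1b, and with the pair summed 5 of 27 were higher. The shares of both genotypes hang on the scaling. Under upper-quartile scaling the split over all genes in WT became 2652 higher and 2617 lower, against 4013 and 1880, and with values as deposited that in iKO became 3980 higher and 2427 lower, against 2759 and 3282. Under each of 4 scalings 9 members were higher and 8 lower by 2-fold in WT, and 6 were higher and 8 lower in iKO. Eno1 and Eno1b count separately among those 6. The share of all genes past 2-fold under each of the 4 was not computed, so these counts do not set the members apart.

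The genes that stood lower after activation were mostly those of glucose entry and of the commitment step. Slc2a1 stood at 27.0 FPKM in ASC iKO against 87.2 in FISC iKO (log2 ratio −2.14), and in WT at 39.9 in ASC against 98.4 in FISC (−1.17). Slc2a3 stood at 4.08 FPKM in ASC WT against 16.3 in FISC WT (−1.67). Hk2 stood at 10.2 FPKM in ASC iKO against 64.1 in FISC iKO (−3.01), and in WT at 18.2 in ASC against 77.2 in FISC (−1.92). In both genotypes these 3 genes were past 2-fold under all 4 scalings. Pfkp stood at 16.3 FPKM in ASC WT against 50.4 in FISC WT, and Pfkfb3 at 5.97 against 15.9. The exporter Slc16a3 stood at 2.69 FPKM in ASC iKO against 19.3 in FISC iKO (−2.87), and in WT at 13.7 in ASC against 29.9 in FISC (−0.97). The tissue-restricted Eno2 and Pgam2 were also low in ASC WT, at 0.480 against 5.57 FPKM in FISC WT and at 0.363 against 2.12.

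The genes at least 2-fold higher after activation in WT were Gpi1, Pfkl, Tpi1, Pgk1, Pgam1, Eno1, Eno3, Pkm, Ldha and Pdk3, and Gapdh and Aldoa were not among them. Pgk1 stood at 491 FPKM in ASC iKO against 73.8 in FISC iKO (log2 ratio 2.22), and in WT at 482 in ASC against 77.3 in FISC (2.73). Pgam1 stood at 198 FPKM in ASC iKO against 32.3 in FISC iKO (2.09), and in WT at 245 in ASC against 37.1 in FISC (2.80). The enolase sum stood at 660 FPKM in ASC iKO against 102 in FISC iKO (2.19), and in WT at 1033 in ASC against 103 in FISC (3.43). Pkm stood at 1314 FPKM in ASC iKO against 327 in FISC iKO, and in WT at 1382 in ASC against 314 in FISC (2.24). Eno3, although a muscle isoform, stood at 76.8 FPKM in ASC WT against 14.5 in FISC WT (2.43). Pfkl stood at 43.5 FPKM in ASC WT against 11.7 in FISC WT (1.91). Gapdh stood at 1033 FPKM in ASC WT against 581 in FISC WT (0.94), and its iKO ratio of −0.10 turned to 0.40 with values as deposited. The ratio of Aldoa in iKO turned in the same way, at −0.15 and 0.35.

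Marker genes differed between the states as well. The 10 satellite cell markers had median log2 ratios of ASC over FISC of −2.85 in iKO and −1.81 in WT. In iKO 8 of them were at least 2-fold lower, where 27.8% of all genes were, and in WT 7, where 15.9% were. Of the 6 erythroid markers Hbb-bt was listed for ASC only. The other 5 summed to 496 FPKM in FISC iKO and 385 in FISC WT. All 6 were all but absent from ASC, with 5 of 6 listed at 0 in ASC iKO and 6 of 6 in ASC WT. The 5 fibroblast markers summed to 196 FPKM in FISC iKO and 185 in FISC WT, above the ASC sums given before, as were the muscle fibre markers. Pgk1, Pfkfb1 and Pdk3 lie on the X chromosome. The Y-linked Ddx3y was listed at 0 in both ASC libraries and stood at 28.3 FPKM in FISC iKO and 62.1 in FISC WT, and Xist stood at 31.2 in ASC iKO, 97.5 in ASC WT, 65.4 in FISC iKO and 62.3 in FISC WT. The sex of the animals and the state cannot be told apart for these genes. Sex-linked genes also differed between the genotypes within a state. As deposited, the log2 ratio of iKO over WT was −1.11 for Ddx3y in FISC. For Xist it was −1.61 in ASC and 0.07 in FISC. The part of sex in the iKO to WT ratios was not tested. The part of the satellite cell markers' shift and of other cells in the activation ratios was not tested either.

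**Figure D4:**
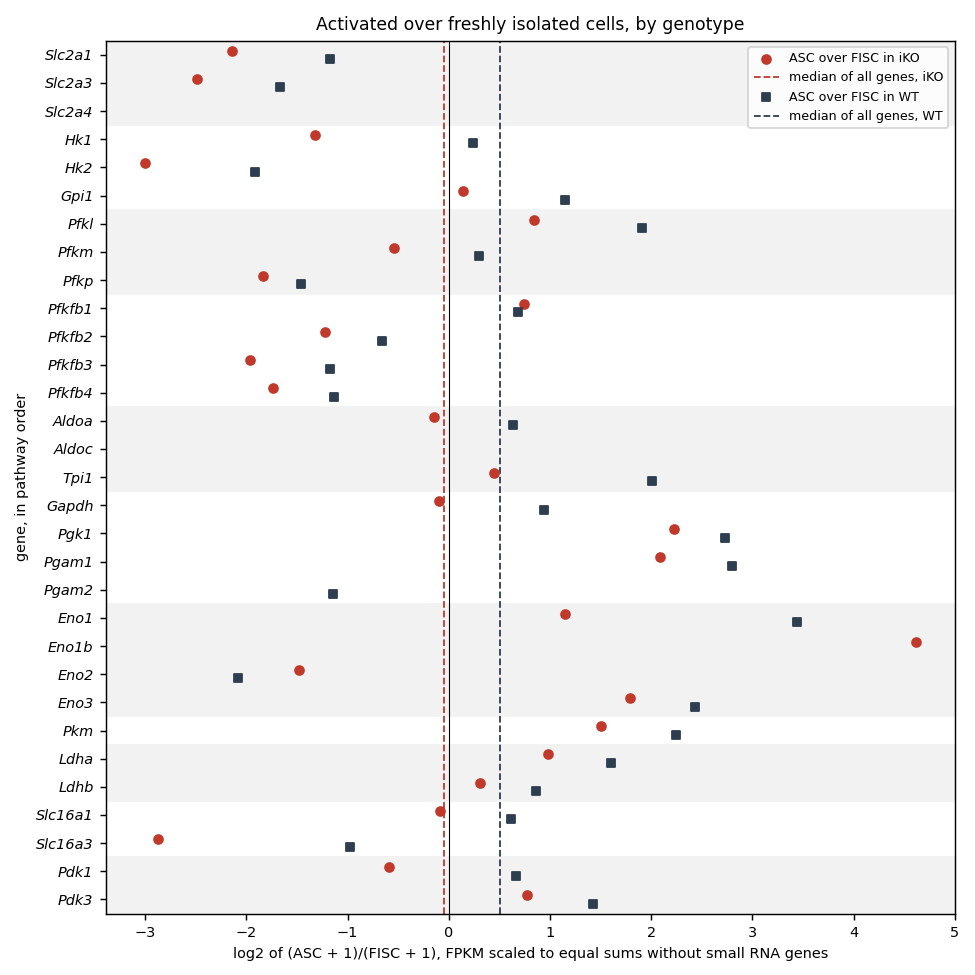
Log2 ratio of ASC over FISC, each value scaled to the same FPKM sum without small RNA genes and with 1 added, for each gene in iKO (circles) and WT (squares); dashed lines give the median of all genes in iKO (−0.05) and WT (0.50). Slc2a1, Slc2a3, Hk2, Pfkp and Pfkfb2 to Pfkfb4 lie left of 0 in both genotypes, and Pgk1, Pgam1, Eno1, Eno3, Pkm and Ldha right of it.

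The isoform make-up within a step does not depend on the scaling between libraries, because it compares genes within 1 library. Hk1 held 71.1% of the hexokinase FPKM in ASC iKO and 71.6% in ASC WT, against 41.7% in FISC iKO and 35.1% in FISC WT, so the leading hexokinase was Hk1 in ASC and Hk2 in FISC. Among phosphofructokinases Pfkl held 59.3% in ASC iKO and 63.8% in ASC WT, whereas Pfkp led in FISC with 60.4% in FISC iKO and 72.8% in FISC WT. The sum of the 3, unlike the shares, depends on the scaling. As deposited it was 55.4 FPKM in ASC iKO, 68.2 in ASC WT, 57.7 in FISC iKO and 69.2 in FISC WT, and scaled to equal sums it was 1.81-fold lower in ASC iKO than in ASC WT. The shares of Hk1, Hk2, Pfkl and Pfkp differed more between the states than between the genotypes.

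A few isoform shares differed between the genotypes within a state. Slc16a3 held 4.02% of the FPKM of the 2 lactate carriers in ASC iKO against 16.0% in ASC WT, and 28.5% in FISC iKO against 37.4% in FISC WT. Pfkfb1 held 25.3% of the PFKFB FPKM in ASC iKO against 13.8% in ASC WT, at about 2 FPKM, while Pfkfb3 held 33.9% against 45.2%. Ldhb held 3.02% of the lactate dehydrogenase FPKM in ASC iKO against 1.69% in ASC WT, and 4.67% in FISC iKO against 2.66% in FISC WT. Ldha thus made up more than 95% in every library. Pfkm held 17.3% of the phosphofructokinase FPKM in ASC iKO against 12.2% in ASC WT, and 17.8% in FISC iKO against 10.3% in FISC WT.

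**Figure D5:**
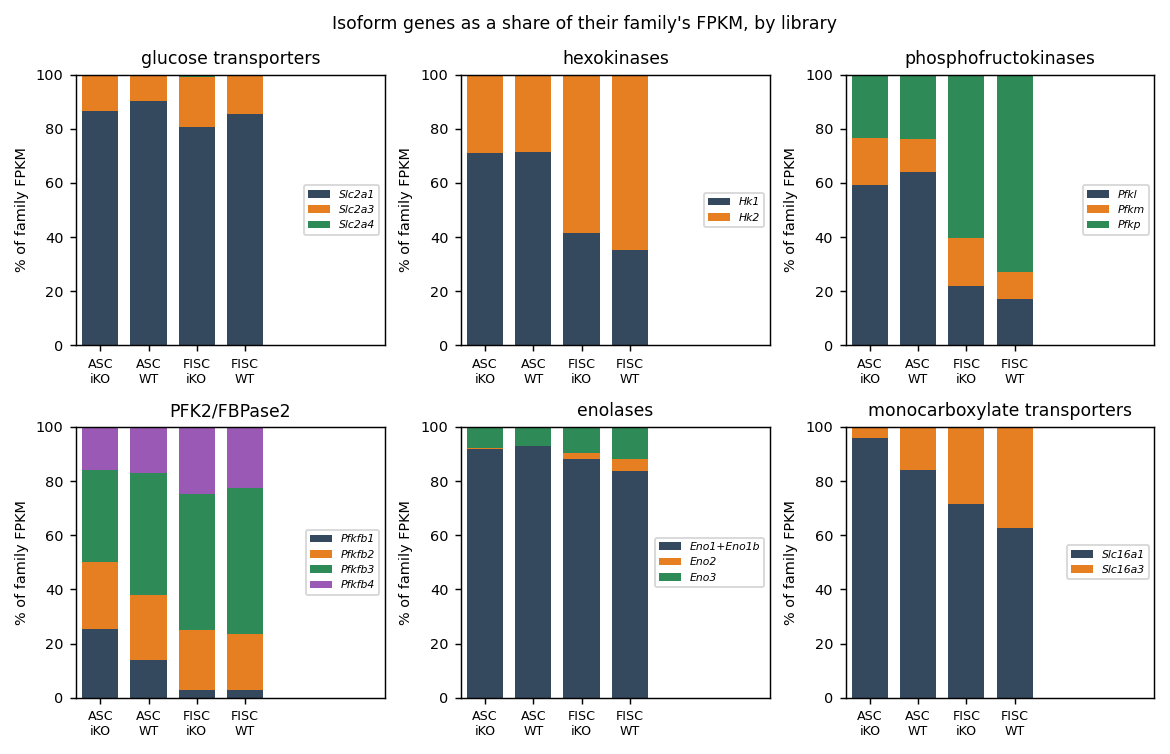
Share of each isoform gene in its family's FPKM, in percent, as stacked bars for the 4 libraries in 6 families, with Eno1 and Eno1b summed. Hk1 and Pfkl take the larger share in the ASC bars and Hk2 and Pfkp in the FISC bars, and Slc16a3 shrinks to 4.02% of its family in ASC iKO.

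YY1 peaks in ASC were set beside the gene loci. Of the 11215 genes with at least 1 FPKM in either ASC library, 6.21% had a peak summit within 2 kb of either locus end. Slc2a4, Aldoc, Pgam2 and Eno2 are not among those genes. Of the 31 members, 1 had such a summit, so the count alone does not set these genes apart. That member was Eno1: the peak (mm9, chromosome 4, 149610972 to 149611109) had its summit 274 bases outside the listed start, an enrichment of 6.68-fold and a −log10 q of 4.56, the authors' own values, and ranked 182 of 2031 by p. How the deposited list was drawn from the peak caller's output is not stated in the labels; the peak names are numbered well past its length. A second summit lay inside the locus of Pfkfb2 (shared with Yod1), 11.7 kb from the nearer end, with a −log10 q of 5.67 and rank 146. The next nearest lay 7.74 kb from Slc2a4 and 26.1 kb from Ldha, both with a −log10 q of 0.246, the median of the list. Slc16a3, the member with the lowest ratio in ASC, had its nearest summit 724 kb away. In ASC Pfkfb2 had a log2 ratio of −0.40, and the enolase sum −0.64.

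The promoter sequences add a description of the letters near these starts. Of the 31 members 28 had RefSeq promoters, with 46 windows in all; Slc2a3, Slc2a4 and Eno1b were not matched. The YY1 letters GCCATNTT occurred in 2 of the 46 windows, both of Pfkm, where 6.05% of all 32851 windows held them and 8.87% of those of genes at 1 FPKM or more in ASC. These 2 windows overlap and hold the same match. By gene it was 1 of 28, where 6.96% of all symbols had a match. Windows of other members overlap too, so the shares of windows can count a site more than once. Neither Eno1 window printed above holds them. The peak has mm9 coordinates and the windows those of a later build, so the peak cannot be placed in the printed windows. ACGTG occurred in 20 of the 46 windows, or 43.5%, against 19.6% of all windows and 26.1% of those of genes at 1 FPKM or more in ASC. GCGTG occurred in 54.3% of the members' windows, against 32.4% and 52.4%. By gene, 16 of the 28 members held ACGTG, against 21.8% of all symbols, among them Slc16a3, 27 and 14 bases before the start. In ASC their log2 ratios ran from −1.99 for Slc16a3 to 0.18 for Pfkm, and Aldoc had no ratio. Between lay Hk1 (−0.84), Pfkfb3 (−0.81), Hk2 (−0.77), Slc2a1 (−0.55), Gapdh (−0.49), Pfkfb2 (−0.40) and Aldoa (−0.32). Also between were Pgam1 (−0.31), Ldha (−0.26), Slc16a1 (−0.16), Pdk3 (−0.14), Pkm (−0.07) and Pgk1 (0.03). Whether the ratio goes with a match was not tested. A match is a description of the sequence and not of binding.

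Genes around the pathway were taken from 6 lists chosen by function. As deposited, 8.74% of all genes were 2-fold higher in ASC iKO than in ASC WT and 8.26% were lower. Under the sum scaling 189 of 11215 genes were higher and 2622 lower. The counts from these short lists do not by themselves set the lists apart from those shares. Among 15 measured regulators of glycolytic genes 1 was 2-fold lower in ASC and none higher, with a median of −0.31. It was Hif1a, the oxygen-regulated subunit of the hypoxia factor, at 13.9 FPKM in ASC iKO against 35.3 in ASC WT (log2 ratio −1.29), and at 46.6 in FISC iKO against 83.2 in FISC WT (−0.82). Mtor, the growth-control kinase, stood at 4.74 FPKM in ASC iKO against 10.4 in ASC WT (−0.99), while Egln2, a prolyl hydroxylase of the HIF proteins, stood at 34.9 against 19.6 (0.80) and Vhl, which marks them for degradation, at 15.4 against 9.51 (0.64). Under the sum scaling the ratios in ASC were −1.83 for Hif1a, −1.48 for Mtor, 0.25 for Egln2 and 0.11 for Vhl, and 4 of the 15 were lower and none higher.

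Routes that branch from glycolysis held genes on both sides of 0 in ASC. Of 11 pentose phosphate genes 2 were 2-fold higher in ASC iKO and none lower, around a median of −0.03. Rpia, ribose-5-phosphate isomerase, stood at 49.9 FPKM in ASC iKO against 22.8 in ASC WT and Pgls, a lactonase, at 106 against 52.4. The log2 ratio of Pgls was 1.00 as deposited and 0.94 under upper-quartile scaling, where it was no longer past 2-fold. G6pdx, which opens the route, stood at 34.9 FPKM in ASC iKO against 66.2 in ASC WT (log2 ratio −0.91), and H6pd at 14.9 against 20.5. Of 13 genes for pyruvate entry into mitochondria 1 was higher and 1 lower. Mpc2, a subunit of the mitochondrial pyruvate carrier, stood at 79.4 FPKM in ASC iKO against 27.0 in ASC WT (1.52, and 0.96 under the sum scaling), with its partner Mpc1 at 51.9 against 32.8 (0.65, and 0.09 scaled). Pdpr, a regulatory subunit of pyruvate dehydrogenase phosphatase, stood at 0.800 FPKM in ASC iKO against 6.41 in ASC WT (−2.04), and the phosphatase Pdp2 at 0.747 against 2.14. The 9 measured genes of the cytosolic NADH shuttles and the 14 of gluconeogenesis and glycogen had no member past 2-fold, with Mdh1 (106 FPKM in ASC iKO, 62.3 in ASC WT) and Slc25a11 (58.4 and 32.6) highest among the shuttles and Slc25a12 (7.62 and 13.0) and Gpd2 (16.8 and 27.6) lowest. In the glycogen list Pygm (3.38 FPKM in ASC iKO, 1.58 in ASC WT) and Gyg (21.7 and 13.2) were highest, and Pgm1 stood at 17.1 FPKM in ASC iKO against 23.5 in ASC WT. Under the sum scaling no gene of these lists was 2-fold higher, and 3 of pyruvate entry, 1 of the pentose phosphate route and 3 of the shuttles were lower. The medians were then −0.53 for the pentose phosphate route, −0.42 for pyruvate entry, −0.59 for the shuttles and −0.47 for the glycogen list.

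Of 9 measured isoforms and partners outside the member list, 1 was 2-fold lower in ASC iKO and none higher. It was Pgam5, which despite its name is a mitochondrial phosphatase, at 5.77 FPKM in ASC iKO against 16.2 in ASC WT (log2 ratio −1.35). The sugar carriers Slc2a9 (3.10 FPKM in ASC iKO, 1.06 in ASC WT) and Slc2a10 (0.427 and 1.15) went opposite ways at low levels, and Bpgm, bisphosphoglycerate mutase, stood at 8.72 against 5.38. Bsg, the chaperone that brings the SLC16A carriers to the membrane, was named after its value was seen: it stood at 344 FPKM in ASC iKO against 230 in ASC WT (0.58, and 0.0075 under the sum scaling). In FISC no gene of these 6 lists passed 2-fold in either direction, where 0.677% of all genes were higher and 0.721% lower.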

How the data were processed

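The authors deposited FPKM, per the file headers, in 1 table per state; table name (state) and column header (genotype) tie each column to its library. Tools named by the submitters' processing notes are MACS2 2.1.0, TopHat2 and Cufflinks 2.2.1, with mm9 as build and no roles; annotation, strand use and scaling were not stated. Of the members, 6 share their listed locus with another gene, so their reads may be mixed. Total depth is unknown; steps of low FPKM (at most 0.3) gave a relative depth, iKO to WT, of 0.666 in ASC and 1.00 in FISC, from the 82 of 1573 and 237 of 1542 low genes that share a step. Peaks come with a deposited score (the truncated 10-fold −log10 p), fold enrichment ratio, −log10 p, −log10 q and summit.

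Ratios were log2((FPKM + 1)/(FPKM + 1)) for genes with at least 1 FPKM in 1 of 2 libraries; the added 1 understates ratios of low genes. Listed start positions were read as counting from 0, because 4727 of 6592 locus lengths then equal RefSeq's. Members and lists were chosen with earlier results of these data known. The text covers every member and, of each related list, the 2 highest and 2 lowest genes in ASC; 1 of these is not reported here. The other scalings of the related lists and of summed genes were chosen after seeing the data. The unscaled ratios and the 2-fold counts were run on simulated data with known changes in genes at 5 FPKM or more. That run checks the calculation only and covers neither the other scalings nor genes at low FPKM. Python 3.11.15, numpy 2.4.6 and pandas 2.3.3 were used.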

Additional observations from a re-analysis of the deposited data

Results flagged for a closer look

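With 1 library per group, a direction that differs between states or genotypes was not tested. Pdk1 stood lower in iKO in ASC (log2 ratio −0.59) and higher in FISC (0.28), a difference of −0.87 at no more than 2.78 FPKM. In the activation ratios Hk1 was below 0 in iKO (−1.32) and above 0 in WT (0.24), a difference of −1.56. Pfkm did the same (−0.54 in iKO, 0.30 in WT, difference −0.84), as did Pdk1 (−0.59 in iKO, 0.67 in WT, difference −1.26). With the median ratio of all well-expressed genes set to 0 in each genotype, Hk1 stood at −1.39 in iKO and −0.26 in WT and Pfkm at −0.60 and −0.15, so neither differed in direction, while Pdk1 kept opposite signs (−0.63 and 0.32).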

How the results depend on the processing

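No paired analysis was possible because each group has 1 library. In the iKO to WT comparison in ASC, scaling to equal sums without small RNA genes gave 8 of 27 members 2-fold lower (2622 of all 11215 genes) and a median of −0.85, summing the enolase pair gave 0 higher and 1 lower, and a 1.5-fold rule gave 7 lower (2268 of 11215). In FISC, a pseudocount of 0.1 gave 2 members lower (217 of 11229 genes), the summed pair 0 higher and the 1.5-fold rule 3 lower (462). For activation in WT the median was 0.78 with a pseudocount of 0.1, 0.25 under upper-quartile scaling and 0.22 with the median ratio set to 0, and the 1.5-fold rule gave 16 members higher (5579 of 11816 genes). In iKO the median changed sign to 0.028 with a filter of 5 FPKM and to 0.40 as deposited, which also gave 10 members higher (3980 of 11797 genes), as did the 1.5-fold rule (4000). A window of 10 kb gave 2 of 31 members with a YY1 peak (10.2% of all genes), counting summits inside loci 2 (9.85%) and a −log10 q of at least 5 gave 0 (1.78%). The cause of these changes was not tested, apart from the fewer or merged genes of the filter and the sum. No single member past 2-fold changed sign under any alternative run. Depth limits the members below 1 FPKM, whose values cannot be ranked.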

Other observations

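As a share of the FPKM sum without small RNA genes, all 31 members made up 0.689% in ASC iKO and 1.27% in ASC WT, against 0.432% in FISC iKO and 0.447% in FISC WT. The members themselves summed to 5147 FPKM in ASC iKO and 6382 in ASC WT. The sum they are divided by was 746911 in ASC iKO and 502503 in ASC WT, so the share also moves with that divisor.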
